A study of Homo sapiens with 4 samples.

Results

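The NDUF genes encode nuclear subunits of mitochondrial complex I (NADH:ubiquinone oxidoreductase), proteins that assemble it, and NDUFA4 with its paralogue NDUFA4L2. Members were taken from the deposited expression table by symbol, as every row on a chromosome named NDUFA, NDUFAB, NDUFB, NDUFC, NDUFS, NDUFV or NDUFAF with a number. This gave 48 of 62077 rows, which carry the symbols of 46 genes, because NDUFA7 and NDUFB8 each have an additional row for a readthrough model with a neighbouring gene. Another 9 rows of the same symbols on alternate haplotypes were left out. Of the 46 genes, 45 had a mean over the libraries of at least 1 FPKM, a read density corrected for transcript length and library depth,, and NDUFA4L2 did not. Counts below refer to these 45 genes unless the readthrough rows are named.

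The study sequenced mRNA of FaDu cells, an established human line derived from a squamous tumour of the hypopharynx, to ask how TET1 knockdown alters gene expression under hypoxia. TET1 is an enzyme that oxidises 5-methylcytosine in DNA. The 4 groups, each with 1 library, were Normoxia (scrambled control), Hypoxia (scrambled control), Normoxia (TET1-si) and Hypoxia (TET1-si), written N-scr, H-scr, N-si and H-si, and values are given in this order. Knockdown was by a lentiviral short hairpin RNA against TET1, the scrambled cells carried a control hairpin, and hypoxia was 19 h in 1% O2, 5% CO2 and 94% N2. All groups are thus virus-infected cells of 1 line. With 1 library a group there was no replicate error, no p-value is given, and each difference below is one between single libraries.

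TET1 itself was listed at 0.129, 0.331, 0.0493 and 0.122 FPKM, so it was lower in both TET1-si libraries, on approximately 11 to 76 reads. Recovered depths were 22540000 to 24500000 reads. FaDu's squamous identity was visible in KRT5 at 2673, 3992, 524 and 1430 FPKM, with TP63 at 42.1 to 54.8 and CDH1 at 179 to 399. KRT5 was thus lower in TET1-si than in scrambled cells in each oxygen state. Of the 7 squamous genes read, 4 were lower in TET1-si cells under hypoxia and 5 under normoxia. Of all genes with a mean of at least 1 FPKM, 42.9% and 39.0% were lower. CDH1 was higher in TET1-si cells in each oxygen state, at 179, 292, 267 and 399 FPKM. So was EPCAM, at 154.5, 101.6, 205.9 and 163.4 FPKM. DSP was higher in TET1-si cells under hypoxia only. KRT14 was at 42.1 and 99.9 FPKM in the scrambled libraries and at 0.487 and 1.41 in the TET1-si libraries. Of the genes of other cell types, PTPRC was listed at 0 to 0.0101 FPKM and VIM stayed below 1, whereas COL1A1 was at 5.29, 28.6, 14.0 and 37.0. The part of these differences in the results below was not tested. Fewer cells of a kind and less RNA per cell cannot be told apart in such bulk libraries.

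Complex I takes electrons from NADH, passes them through flavin and iron-sulphur clusters in its matrix arm to ubiquinone, and pumps protons through its membrane arm. Its catalytic core is encoded in part by the nucleus (some NDUFV and NDUFS genes) and in part by mitochondrial DNA (MT-ND genes). Accessory subunits and assembly factors surround and build it. Cells in hypoxia are known to shift from respiration towards glycolysis, and NDUFA4L2 is known as a target of the hypoxia-inducible factor HIF-1 in many cell types.

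The NDUF genes were abundantly expressed in FaDu cells. The 45 genes had median levels of 112, 82.7, 117 and 67.3 FPKM, in the order above. NDUFV1, the flavin-bearing subunit that oxidises NADH, was the most abundant in 3 libraries at 625, 523 and 427 FPKM, and NDUFS5 was so in N-si at 502. At the lower end stood assembly factors, with NDUFAF5 or NDUFAF3 lowest at 9.04 to 14.7 FPKM. The order of levels was nearly the same from library to library, with a Spearman correlation of 0.89 to 0.98 across the 45 genes between any pair of libraries. Genes are not independent replicates, and these libraries share the cell line and the gene lengths used in FPKM. Summed over the 45 genes, expression was 6479 and 4855 FPKM in scrambled cells without and with hypoxia, and 6232 and 4306 FPKM in TET1-si cells. The sums over all rows were also lower in hypoxia, at 823105 and 758444 FPKM in scrambled and 795537 and 723659 FPKM in TET1-si cells.

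The hypoxia comparison showed nearly all NDUF genes lower in hypoxia, most of them by less than 2-fold. In scrambled cells 44 of the 45 genes were lower in H-scr than in N-scr, where 46.4% of all 15057 genes tested were lower. In TET1-si cells 43 of 45 were lower in H-si than in N-si, against 47.8% of all genes. Lower values in both knockdown states were found for 42 of 45 genes, against 35.7% of all genes. The median difference on the log2(FPKM + 0.1) scale was -0.46 in scrambled and -0.47 in TET1-si cells, a ratio of 0.727 and 0.722, whereas the medians of all genes were 0.05 and 0.03. Including the readthrough rows, 44 of 47 rows were lower in each knockdown state.

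Approximate reads were recovered from the FPKM to give each ratio an exact (Clopper-Pearson) 95% counting interval, which covers counting error only and not differences between cultures. The median half-width of these intervals was 0.13 on the log2 scale with the scrambled control and 0.12 with TET1-si. The interval lay below 0 for 44 of 45 genes with the scrambled control and for 37 of 45 with TET1-si, against 33.2% and 36.6% of all genes. Exceptions in direction were NDUFA5 and NDUFA8 in TET1-si cells, at 0.08 and 0.01, and median-of-ratios scaling turned these values to -0.02 and -0.09. The interval of NDUFA8 ran from -0.16 to 0.17, so a difference was not detectable at this depth. Scaling to TPM, which raises the median of all genes in hypoxia to 0.16, turned the sign of 1 gene with the scrambled control and of 5 with TET1-si, all within 0.12 of 0.

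**Figure D1:**
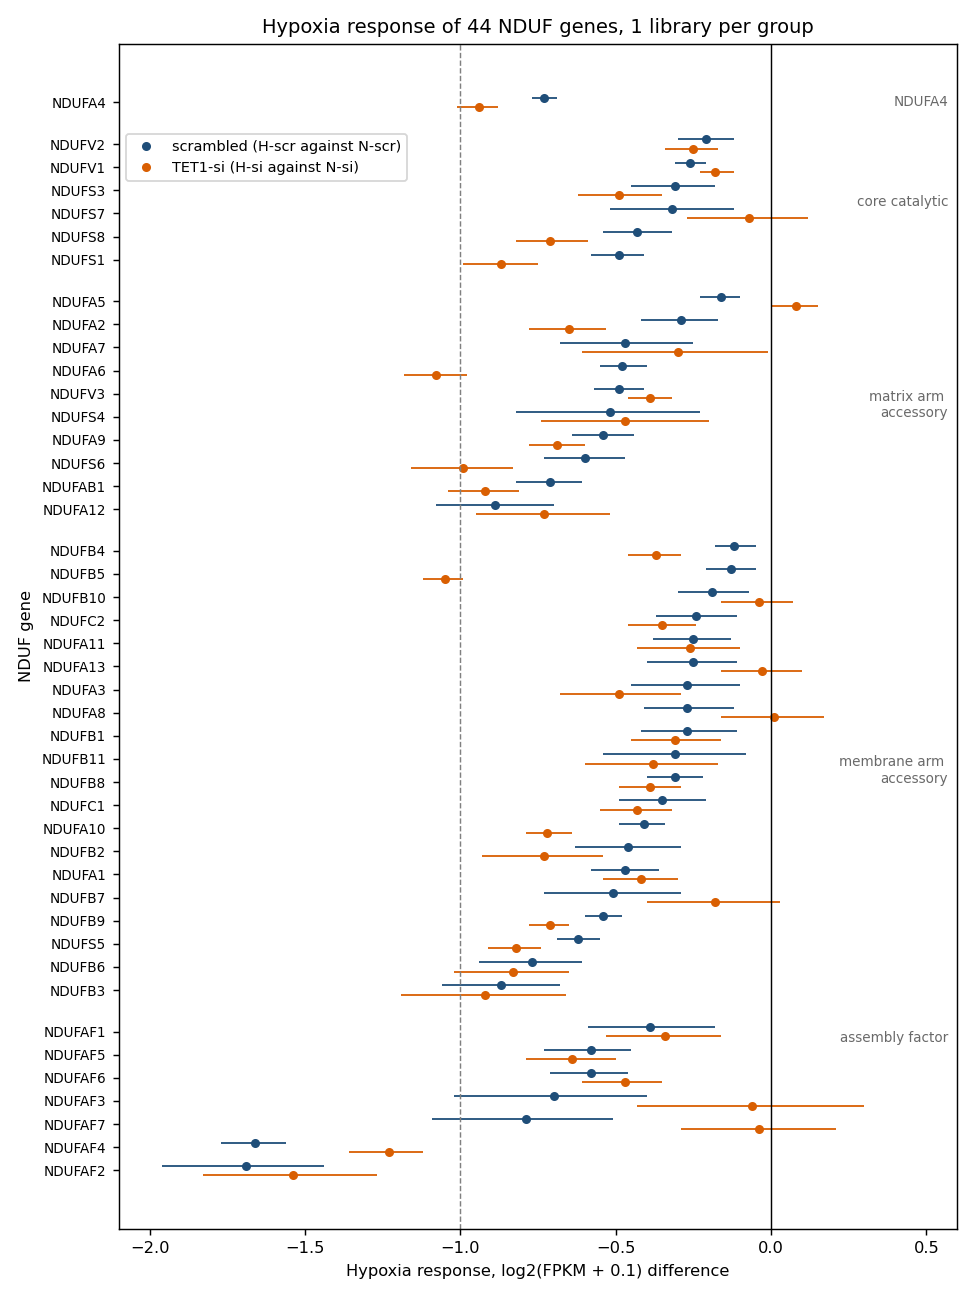
Hypoxia responses of 44 NDUF genes, as the log2(FPKM + 0.1) difference of hypoxia less normoxia (x axis), in scrambled cells (blue) and TET1-si cells (orange), with 1 library per group. Bars are exact 95% counting intervals and the dashed line marks a 2-fold fall. Only NDUFAF2 and NDUFAF4 lie beyond it in both colours, and NDUFA6 and NDUFB5 do so in orange.

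A fall of at least 2-fold was reached by 2 of 45 genes with the scrambled control and by 4 of 45 with TET1-si, against 4.53% and 8.66% of all genes. No NDUF gene was 2-fold higher in either state (0 of 45), where 12.9% and 12.5% of all genes were. The shares of falls were close to the background. The TET1-si count depended on the scaling. With TPM it was 2 of 45 (6.97% of all genes), since NDUFA6 and NDUFB5 were then at -0.94 and -0.92, and with median-of-ratios scaling it was 8 of 45 (10.2% of all genes). The count with the scrambled control was 2 under each scaling. The 2 genes of scrambled cells, NDUFAF2 and NDUFAF4, were past 2-fold in both knockdown states, where 2.34% of all genes were. A fall of at least 1.5-fold was seen for 11 of 45 genes with the scrambled control and 19 of 45 with TET1-si, against 13.7% and 19.0% of all genes, and for 9 of 45 in both states, against 9.27%.

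The assembly factors held the largest falls. NDUFAF2 (ENSG00000164182, chromosome 5, 60240956 to 60448853, plus strand, hg19) is a paralogue of the subunit NDUFA12 and acts late in assembly. Its FPKM was 54.0, 16.7, 46.0 and 15.8, so that both hypoxia libraries stood far below both normoxia libraries. NDUFAF2 fell 3.24-fold in scrambled cells, with a log2 difference of -1.69 and a counting interval of -1.96 to -1.44. After knockdown it fell 2.92-fold, with a difference of -1.54 and an interval of -1.83 to -1.27.

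NDUFAF4 (ENSG00000123545, chromosome 6, 97337189 to 97345757, minus strand) works with NDUFAF3 at an early step of matrix arm assembly. Its FPKM was 55.96, 17.7, 38.8 and 16.5, again with both hypoxia libraries low. The gene fell 3.17-fold in scrambled cells (log2 -1.66, interval -1.77 to -1.56) and 2.36-fold in TET1-si cells (log2 -1.23, interval -1.36 to -1.12). Its partner NDUFAF3 was at 16.8, 10.3, 9.57 and 9.17 FPKM. NDUFAF3 was lower in hypoxia in scrambled cells, at -0.70, and its difference of -0.06 in TET1-si cells had an interval of -0.43 to 0.30. N-si stood near the hypoxia libraries for this gene.

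The remaining assembly factors moved less. NDUFAF1, needed for the membrane arm, was at 14.7, 11.3, 17.8 and 14.1 FPKM, with differences of -0.39 and -0.34. NDUFAF5, which hydroxylates the core subunit NDUFS7, was at 14.7, 9.75, 14.2 and 9.04 FPKM, with -0.58 and -0.64. For NDUFAF6, an early assembly factor, the levels were 35.4, 23.5, 31.3 and 22.5 FPKM and the differences -0.58 and -0.47. All 3 were thus lower in both hypoxia libraries by similar amounts. NDUFAF7, a protein methyltransferase, was at 17.8, 10.2, 17.6 and 17.1 FPKM. Only H-scr was low for NDUFAF7, with a difference of -0.79 with the scrambled control and of -0.04 with TET1-si. Over the 7 assembly factors the median was -0.70 in scrambled and -0.47 in TET1-si cells.

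NDUFAF8, another assembly factor, is listed under its older symbol C17orf89 and so falls outside the symbol rule. It was at 133 and 55.4 FPKM with the scrambled control and at 208 and 71.8 with TET1-si. The falls were 2.41-fold and 2.90-fold, so the gene stood with NDUFAF2 and NDUFAF4. Among 8 further genes that act in complex I assembly but have other names (ACAD9, ECSIT, TMEM126B, TIMMDC1, FOXRED1, NUBPL, COA1 and TMEM186), 8 were lower in hypoxia with the scrambled control and 7 with TET1-si. None of these 8 was 2-fold lower, and the medians were -0.42 and -0.62. The shares of all genes were 46.4% and 47.8% lower, and 4.53% and 8.66% at least 2-fold lower.

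The core catalytic subunits showed smaller differences, with a median of -0.31 in scrambled and -0.25 in TET1-si cells over 7 genes. NDUFV1 was at 625, 523, 482 and 427 FPKM, differences of -0.26 and -0.18. Its partner in the NADH-oxidising module, NDUFV2, which carries an iron-sulphur cluster, was at 148, 128, 147 and 123 FPKM, differences of -0.21 and -0.25. NDUFS1, the largest subunit and a carrier of several iron-sulphur clusters, was at 49.2, 34.9, 32.0 and 17.5 FPKM. Its differences of -0.49 and -0.87 were the lowest of the core in both knockdown states. NDUFS1 was thus lowest in H-si, where both conditions met.

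NDUFS3, NDUFS7 and NDUFS8 lie near the site where ubiquinone is reduced. NDUFS3 was at 128, 103, 128 and 91.5 FPKM, with differences of -0.31 and -0.49. NDUFS7, which holds the last iron-sulphur cluster before ubiquinone, was at 35.4, 28.4, 34.4 and 32.7 FPKM. NDUFS7 had a difference of -0.32 with the scrambled control, and of -0.07 with TET1-si, where the interval ran from -0.27 to 0.12. NDUFS8 was at 179, 133, 186 and 114 FPKM, with differences of -0.43 and -0.71. These 3 genes were lower in hypoxia in both knockdown states, except under TPM for NDUFS7, at 0.06 in TET1-si cells.

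Among the 10 accessory subunits of the matrix arm the median difference was -0.50 in scrambled and -0.67 in TET1-si cells, and values ran from -0.89 to -0.16 and from -1.08 to 0.08. NDUFA12 (chromosome 12, 95290831 to 95397546, minus strand) was lowest of these in scrambled cells. Its FPKM was 88.5, 47.9, 68.7 and 41.3, and its differences were -0.89 and -0.73. NDUFA6, which binds the acyl carrier protein encoded by NDUFAB1, was at 162, 116, 131 and 62.1 FPKM. It was lower in hypoxia in scrambled cells, at -0.48, and fell 2.11-fold in TET1-si cells, at -1.08. H-si stood below the other libraries for this gene. NDUFA5 was at 49.0, 43.8, 38.6 and 40.7 FPKM, differences of -0.16 with the scrambled control and 0.08 with TET1-si.

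The 20 accessory subunits of the membrane arm had medians of -0.31 and -0.41, with ranges of -0.87 to -0.12 and -1.05 to 0.01. NDUFB3 stood at the low end in scrambled cells, with 95.2, 52.2, 52.8 and 27.9 FPKM. NDUFB4 stood at the other end, at 345, 318, 272 and 209.9 FPKM, with differences of -0.12 (0.00 under TPM) and -0.37. NDUFB5 (ENSG00000136521, chromosome 3, 179322478 to 179345435, plus strand) was at 192, 176, 406 and 196 FPKM. N-si alone was high for NDUFB5, so that its hypoxia difference was -0.13 with the scrambled control and -1.05, a 2.07-fold fall, with TET1-si. NDUFA8 was at 64.8, 53.9, 42.9 and 43.0 FPKM, level between the TET1-si libraries.

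NDUFA4, first described as a complex I subunit and since assigned to complex IV, was lower in hypoxia in both knockdown states. Its FPKM was 295, 177, 143 and 74.5, differences of -0.73 and -0.94. NDUFA4L2 (ENSG00000185633, chromosome 12, 57628686 to 57634498, minus strand), whose product is known to lower complex I activity in hypoxia, was listed at 0.747, 0.429, 0.296 and 0.388 FPKM. These values rest on approximately 12, 8, 5 and 6 reads. The hypoxia intervals on the log2 scale ran from -2.18 to 0.73 with the scrambled control and from -1.59 to 2.43 with TET1-si. A difference of NDUFA4L2 in hypoxia was therefore not detectable at this depth, and the upper bound in scrambled cells was 0.73.

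Mitochondrial genes known to respond to hypoxia were read in the same libraries. PDK1, a kinase that restrains pyruvate oxidation in mitochondria, rose in hypoxia, being at 1.71, 8.77, 6.16 and 16.0 FPKM. BNIP3, a mitophagy receptor, also rose, being at 11.5, 69.2, 25.0 and 70.1 FPKM. Of the 7 genes of this list with a mean of at least 1 FPKM, 3 were at least 2-fold higher with the scrambled control and 4 with TET1-si, against the same background of 12.9% and 12.5%. The other way, 3 of the 7 were lower in both knockdown states, against 35.7% of all genes. These were HIGD1A, at -0.54 and -0.65, LONP1, a mitochondrial protease, at -0.30 and -0.43, and ISCU, an iron-sulphur cluster scaffold, at -0.28 and -0.25. COX4I2, a hypoxia-linked complex IV subunit, was listed at 0 in each library. NDUFA4L2 thus stood apart in level from PDK1 and BNIP3 in these cells, where both were above 1 FPKM and higher in hypoxia.

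**Figure D2:**
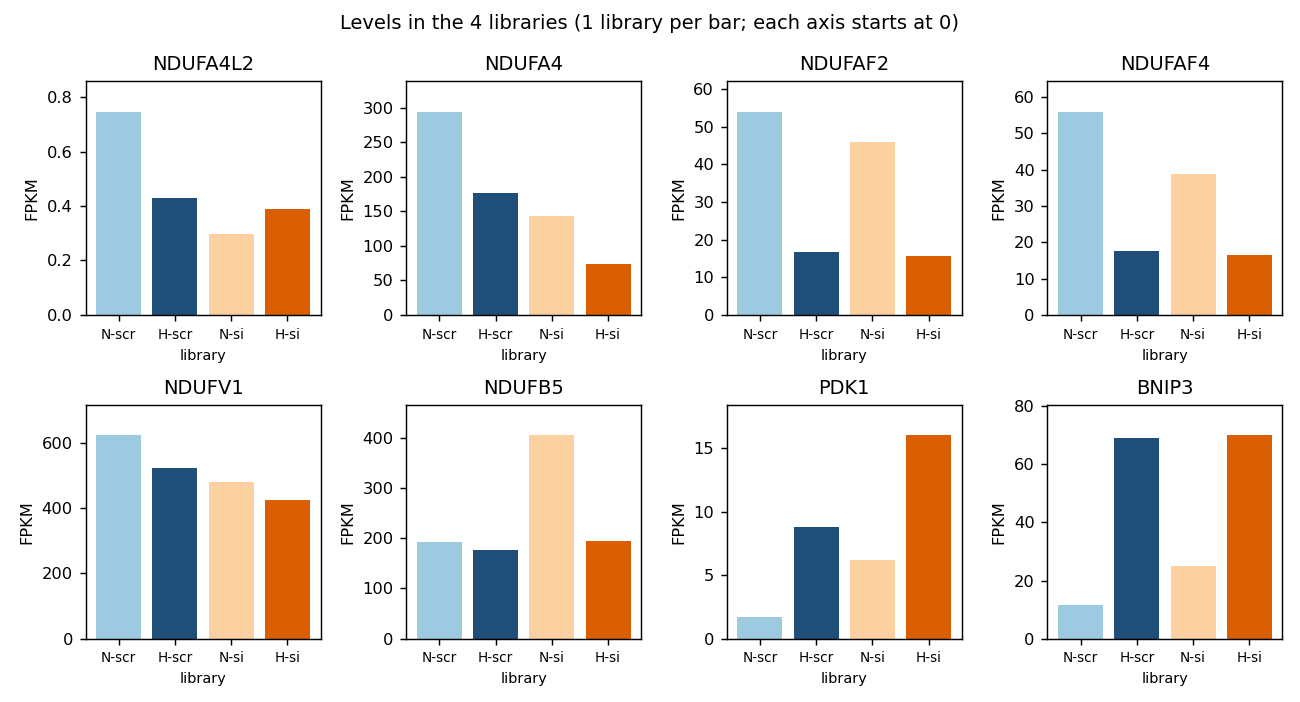
FPKM (y axis, linear and starting at 0) of 6 NDUF genes, with PDK1 and BNIP3 for comparison, in the 4 libraries (x axis, 1 library per bar). NDUFAF2 and NDUFAF4 are low in both hypoxia libraries, NDUFA4 is lower in both TET1-si libraries, NDUFB5 is high in N-si alone, and NDUFA4L2 stays below 1 FPKM.

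The lower values in hypoxia extended to other nuclear genes of oxidative phosphorylation. Among all genes, 46.4% were lower with the scrambled control and 47.8% with TET1-si. For complexes II and III, 11 of 13 genes were lower with the scrambled control and 12 of 13 with TET1-si, with medians of -0.54 and -0.57. Complex IV had 9 and 10 of 10 genes lower and medians of -0.37 and -0.46. For the ATP synthase, 15 of 15 genes were lower in each knockdown state, with medians of -0.53 and -0.65. Its largest fall was in ATP5G1, which encodes the membrane c subunit, at -1.48 and -1.88. The NDUF medians of -0.46 and -0.47 lay within the range of these lists.

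Of the 7 mitochondrially encoded subunits of complex I, 5 were higher in hypoxia in TET1-si cells. Their median was -0.12 in scrambled cells, with 7 of 7 genes lower, and 0.19 in TET1-si cells, with 2 of 7 lower. With TPM these medians were 0.00 and 0.33, with 4 and 2 of 7 lower, and with median-of-ratios scaling -0.23 and 0.10, with 7 and 3 lower. MT-ND4, a proton-pumping subunit, was at 224, 206, 129 and 147 FPKM. MT-ND2 was the lowest of them in hypoxia, with 51.6, 34.6, 40.5 and 24.8 FPKM and differences of -0.58 and -0.71. The other 6 lay between -0.26 and 0.32. In scrambled cells the counting intervals of MT-ND1, MT-ND3, MT-ND4L and MT-ND5 held 0. Those of MT-ND3 and MT-ND5 also held 0 in TET1-si cells. All 7 genes were lower in TET1-si than in scrambled cells, with medians of -0.46 under hypoxia and -0.51 under normoxia. Of all genes, 42.9% and 39.0% were lower in these comparisons. Transcripts of the mitochondrial genome are made and processed apart from nuclear ones, and the libraries were made by an mRNA protocol. How well that protocol captured each of them was not tested.

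**Figure D3:**
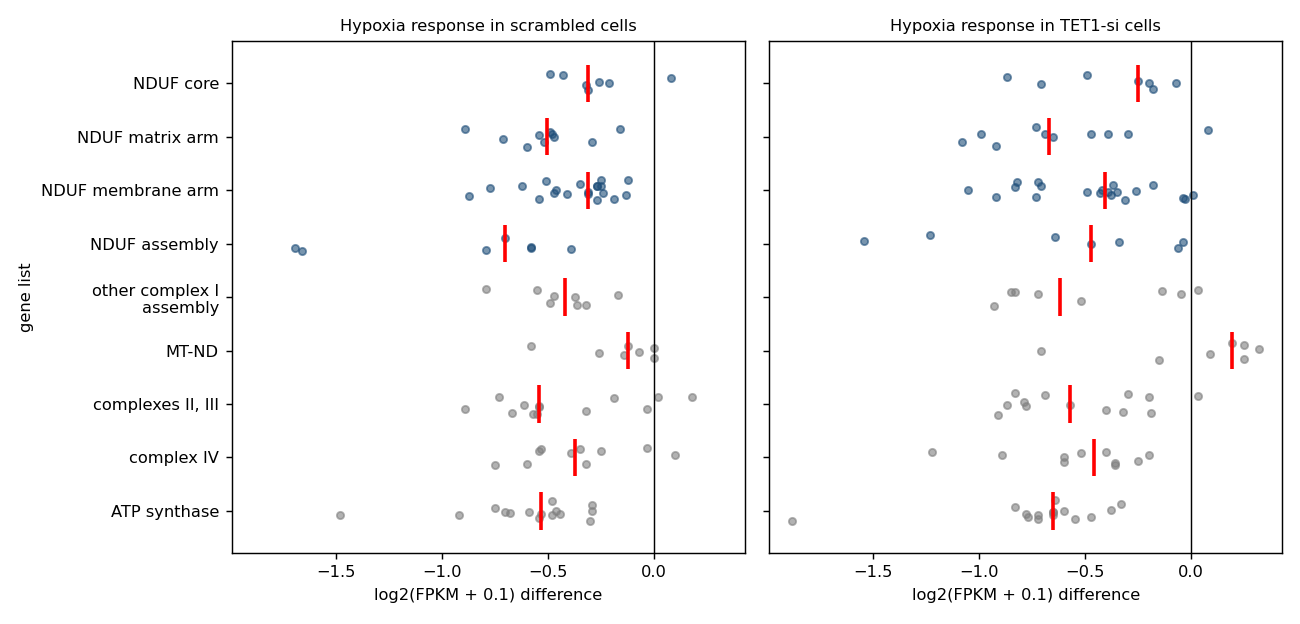
Hypoxia response, as log2(FPKM + 0.1) difference (x axis, the same range in both panels), of each gene (points) in the NDUF groups (blue) and in other lists of mitochondrial genes (grey), in scrambled cells (left) and TET1-si cells (right). Red lines are medians over genes, and the MT-ND median is -0.12 (0.00 with TPM) on the left and 0.19 on the right.

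Regulators of mitochondrial biogenesis were read beside the NDUF genes, without a test of their part. Of 9 regulators above the minimum, 7 were lower in hypoxia in each knockdown state, against 46.4% and 47.8% of all genes. PPRC1, a coactivator related to PGC-1, was at 41.6, 22.7, 31.8 and 10.8 FPKM, with a 2.96-fold fall in TET1-si cells. TFAM, the mitochondrial transcription and packaging factor, was at 123, 78.9, 125 and 69.3 FPKM. NRF1, a transcription factor for respiratory genes, was at 11.8, 9.11, 10.3 and 6.39 FPKM. TFB1M, a mitochondrial rRNA methyltransferase, was at 0.27 and 0.35. ESRRA, a nuclear receptor, was at -0.09 with the scrambled control and 0.66 with TET1-si. PPARGC1A was at or below 0.0540 FPKM in each library.

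Promoters were compared because the members moved in the same direction. RefSeq promoters of GRCh38.p14 were matched by symbol for 38 of the 46 genes, and the 250 bases before the start were searched on both strands. NDUFA4, NDUFA4L2, NDUFAF6, NDUFB5, NDUFB9, NDUFC2 and NDUFS5 were among those with no entry. The hypoxia response element core was searched as ACGTG, found in 23.7% of the 38 and 18.7% of 27305 promoters, and as GCGTG, found in 52.6% and 31.9%. The SP1 motif GGGCGG was in 55.3% against 42.3%, and CCAAT in 23.7% against 33.0%. Rarer were CCGGAAGT of the ETS factors (5.26% against 3.64%), the palindromic NRF1 motif (2.63% against 1.13%) and AAGATGGC of YY1 (0 of 38 promoters, 1.37% of all). No overlap between the motifs was removed, and a match is a description of letters only.

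Hypoxia responses of genes with and without a motif were set side by side, without a test. The 9 genes with ACGTG had a median of -0.47 in scrambled cells, and the 29 without it -0.43. With GCGTG the median was -0.37 over 20 genes, and without it -0.48 over 18. In TET1-si cells the medians were -0.42 and -0.43 for ACGTG and -0.39 and -0.45 for GCGTG. For CCAAT they were -0.43 and -0.46 with the scrambled control and -0.65 and -0.42 with TET1-si, over 9 and 29 genes.

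The promoters of NDUFAF2 and NDUFAF4 are shown as those of the largest falls, that of NDUFA12 as the next in scrambled cells with a promoter, and that of NDUFB4 for the smallest decrease there. Each is written 5′ to 3′ along the gene's strand up to the base before the start, with the searched motifs of either strand in capitals. NDUFAF2 lies at chr5:60944955-60945204 (plus), NDUFAF4 at chr6:96897892-96898141 (minus), NDUFA12 at chr12:95003698-95003947 (minus) and NDUFB4 at chr3:120596086-120596335 (plus).
NDUFAF2: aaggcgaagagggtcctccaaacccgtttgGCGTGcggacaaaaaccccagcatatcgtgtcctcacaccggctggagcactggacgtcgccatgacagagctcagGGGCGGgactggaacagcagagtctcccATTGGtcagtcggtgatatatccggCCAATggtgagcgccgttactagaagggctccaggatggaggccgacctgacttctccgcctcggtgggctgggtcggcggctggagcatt
NDUFAF4: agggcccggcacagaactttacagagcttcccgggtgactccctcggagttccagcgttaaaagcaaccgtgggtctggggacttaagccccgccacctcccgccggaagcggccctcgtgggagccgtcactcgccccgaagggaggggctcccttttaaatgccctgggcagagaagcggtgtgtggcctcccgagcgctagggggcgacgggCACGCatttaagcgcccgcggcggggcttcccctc
NDUFA12: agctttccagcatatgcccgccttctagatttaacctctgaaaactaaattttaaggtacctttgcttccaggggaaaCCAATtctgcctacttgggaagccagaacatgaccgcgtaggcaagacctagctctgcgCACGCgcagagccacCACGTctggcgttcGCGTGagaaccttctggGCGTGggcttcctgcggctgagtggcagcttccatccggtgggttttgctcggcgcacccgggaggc
NDUFB4: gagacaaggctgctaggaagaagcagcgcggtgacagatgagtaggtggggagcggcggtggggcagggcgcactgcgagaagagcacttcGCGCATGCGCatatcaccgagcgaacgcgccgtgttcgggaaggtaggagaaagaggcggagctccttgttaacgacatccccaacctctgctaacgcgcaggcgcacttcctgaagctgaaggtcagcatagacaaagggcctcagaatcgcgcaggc
In NDUFAF2 a GCGTG began at position -220 from the start, followed by a GGGCGG and a CCAAT on each strand. NDUFAF4 held 1 GCGTG, on the reverse strand. NDUFA12 held 3 GCGTG and 1 ACGTG between the positions -113 and -67, and a CCAAT at -172. In NDUFB4 the NRF1 motif was the only match.

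The knockdown comparison asked how NDUF levels differed between TET1-si and scrambled cells. There the genes moved in both directions. Under hypoxia 29 of 45 genes were lower in TET1-si cells and 16 higher, against 42.9% and 56.5% of all genes. Under normoxia 28 were lower and 17 higher, against 39.0% and 60.3%. The median was -0.11 under hypoxia and -0.10 under normoxia, against 0.10 and 0.15 for all genes. Lower in both oxygen states were 25 genes and higher in both 13, against 28.7% and 46.2% of all genes. The counting interval lay below 0 for 20 genes and above 0 for 12 under hypoxia, against 31.1% and 42.4% of all genes. Under normoxia the numbers were 21 and 13, against 25.9% and 45.2%.

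NDUFA4 (ENSG00000189043, chromosome 7, 10971578 to 10979883, minus strand) fell at least 2-fold in both oxygen states, as 3.06% of all genes did. With 295 and 177 FPKM in the scrambled and 143 and 74.5 in the TET1-si libraries, its TET1-si libraries both lay below its scrambled ones. The fall was 2.38-fold under hypoxia (log2 -1.25, interval -1.31 to -1.19) and 2.06-fold under normoxia (log2 -1.04). With TPM its normoxia value was -0.99, short of 2-fold. On the log2(FPKM + 0.1) scale 1 of 45 genes, NDUFA4, was 2-fold lower under hypoxia, against 8.35% of all genes, and none was 2-fold higher, against 12.0%. Median-of-ratios scaling put 5 of 45 genes past a 2-fold fall under hypoxia, with NDUFA6, NDUFA7, NDUFB3 and NDUFS1 beside NDUFA4, against 10.6% of all genes.

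Under normoxia 2 of 45 genes were 2-fold lower and 1 was 2-fold higher, against 5.56% and 12.1% of all genes. NDUFA7 (ENSG00000267855, chromosome 19, 8373490 to 8386280, minus strand), a matrix arm subunit, was at 49.2, 35.6, 24.0 and 19.4 FPKM. It fell 2.05-fold under normoxia, at -1.03 (-0.98 with TPM, which left 0 of 45 genes 2-fold lower), and was at -0.87 under hypoxia. Its overlapping readthrough row shares reads with it, and with both rows summed the values were -0.82 under normoxia and -1.01 under hypoxia. The higher gene was NDUFB5, which rose 2.11-fold under normoxia (log2 1.08, interval 1.01 to 1.14) and was at 0.15 under hypoxia. Median-of-ratios scaling took its normoxia value to 0.91, below 2-fold.

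Other differences stayed under 2-fold on the log2(FPKM + 0.1) scale. NDUFB3 was at -0.90 under hypoxia and -0.85 under normoxia, and at -1.05 and -1.02 with median-of-ratios scaling. NDUFS1 lay at the threshold under hypoxia, short of it with the 0.1 added and past it on the plain FPKM ratio of 0.4996, and was at -0.62 under normoxia. NDUFA6 was at -0.90 under hypoxia and -0.30 under normoxia. In the other direction, NDUFC1, a membrane arm subunit, was at 81.3, 63.8, 133 and 98.7 FPKM, with values of 0.63 and 0.71. NDUFAF7 had the highest value under hypoxia, 0.73, with an interval of 0.45 to 1.03, and its -0.02 under normoxia had one of -0.27 to 0.23. NDUFB3 and NDUFC1, both of the membrane arm, thus differed in opposite directions.

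The order of the TET1-si responses was similar in both oxygen states, which share no library. Across the 45 genes the Spearman correlation was 0.81 and the Pearson correlation 0.79, and over all genes the Spearman correlation was 0.65. For the hypoxia responses in the 2 knockdown states the values were 0.57 and 0.64 over the 45 genes, and the Spearman correlation over all genes was 0.68. These are correlations across genes of single libraries, and they carry no p-value.

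Members were also set beside the genes around them. For each gene the 10 nearest protein-coding genes on either side with a mean of at least 1 FPKM were taken, members left out, and the median of these 20 genes was computed. Across the 45 NDUF genes, the TET1-si response and that of the neighbours had a Spearman correlation of 0.74 under hypoxia and 0.68 under normoxia. The correlation for hypoxia responses was lower, 0.45 in scrambled and 0.26 in TET1-si cells. Windows of members close to each other share genes, and the gene and its neighbours come from the same libraries. The same correlation was not computed over all genes, so whether it is particular to NDUF genes was not tested.

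NDUFB3 stood on chromosome 2 among neighbours whose median after knockdown was -0.67 under hypoxia and -0.86 under normoxia, 18 and 17 of 20 of them lower. The neighbours of NDUFB5 were at 0.62 and 0.65, and those of NDUFV3, on chromosome 21, at 0.71 and 0.56. For these genes the direction was that of the surrounding genes in both oxygen states. NDUFA4 was lower than its neighbours, which were at -0.11 and -0.40 with 14 of 20 lower in each state. NDUFS1 and NDUFA7 were lower while their neighbours' medians under hypoxia were 0.16 and 0.00. Under normoxia these medians were 0.02 for NDUFS1 and -0.11 for NDUFA7, with 9 and 13 of 20 neighbours lower, so that NDUFA7 shared its neighbours' direction there. No cause of the shared directions was tested.

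**Figure D4:**
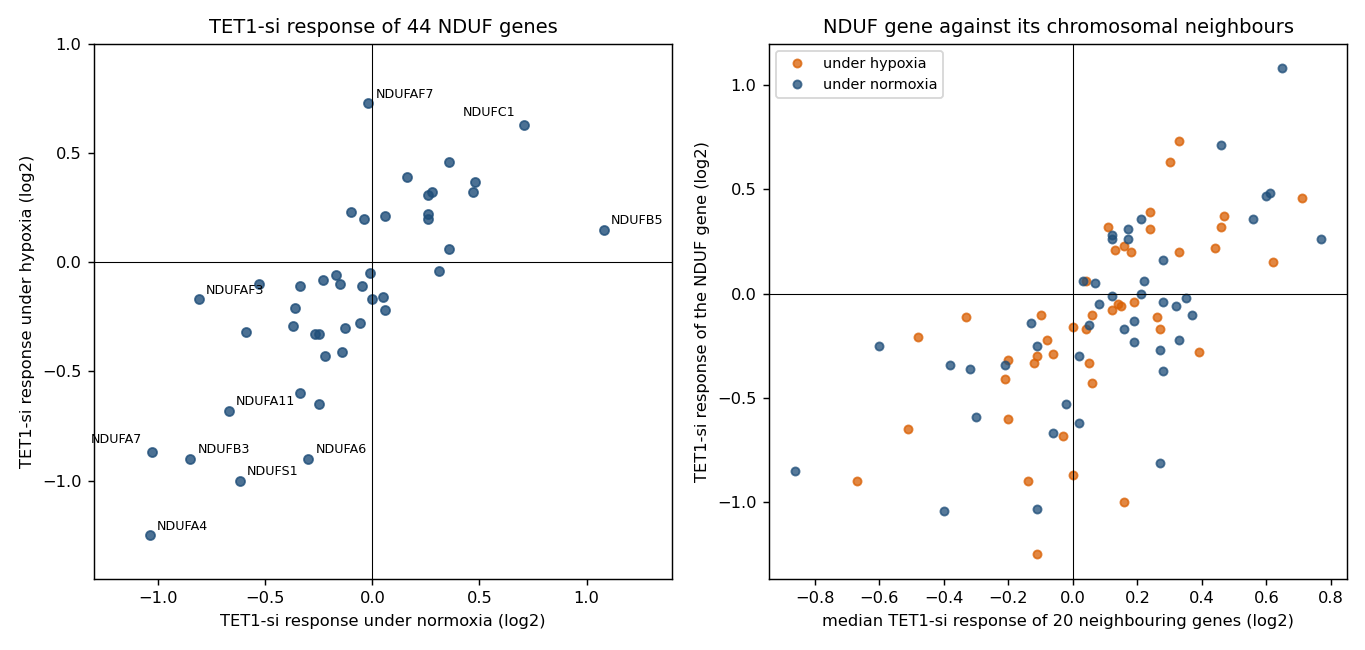
Left, TET1-si response of 44 NDUF genes under normoxia (x axis) and hypoxia (y axis), log2(FPKM + 0.1) differences of TET1-si less scrambled, 1 point per gene. Right, the response of each NDUF gene (y axis) against the median of its 20 neighbouring genes (x axis), under hypoxia (orange, Spearman 0.74 over 45 genes) and normoxia (blue, Spearman 0.68).

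The last comparison asked whether the hypoxia response of NDUF genes differed between TET1-si and scrambled cells. After subtracting the scrambled response from the TET1-si response, the median of the 45 genes was -0.06 on the log2 scale, the same as that of all genes. The difference was negative for 27 of 45 genes, against 55.4% of all genes. It ran from -0.92 for NDUFB5 to 0.75 for NDUFAF7. Counting intervals of both responses overlapped for 30 genes. For 12 genes the response in TET1-si cells lay wholly below that in scrambled cells, among them NDUFA2, NDUFA4, NDUFA6, NDUFA10, NDUFB5, NDUFS1 and NDUFS8, where 24.7% of all genes did. For 3 genes, NDUFA5, NDUFAF4 and NDUFAF7, it lay above, against 15.0% of all genes. The study chose TET1-dependent genes by FPKM in H-scr exceeding both N-scr and 2-fold the level in H-si, with N-scr no lower than N-si. These criteria were met by 0 of 45 NDUF genes, against 3.84% of all genes. Since 44 of the 45 genes were lower in H-scr than in N-scr, those could not meet them whatever their level in TET1-si cells.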

How the data were processed

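RNA-Seq libraries of FaDu cells were analysed, 1 for each of the 4 groups. The authors prepared TruSeq mRNA libraries, sequenced 100 bp reads on a HiSeq2000 (single end per the labels, paired end per the study's methods), aligned them to hg19 with TopHat/Cufflinks using Ensembl annotations, and deposited gene-level FPKM. Versions and filters are not given in the sources used here. Coordinates of genes are hg19, counted from 1, and those of the promoters are GRCh38.p14.

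From the FPKM, differences of log2(FPKM + 0.1) were computed, which understate changes of low genes. Genes with a mean of at least 1 FPKM were counted, 15057 in all. A 2-fold difference was counted as a change. The 232 rows whose gene ID stands on more than 1 row were left out of counts. Depths were recovered from genes with 1 exon, whose FPKM are whole reads divided by depth and by length less 212 bp. Between 91.3% and 91.9% of values came out whole within 0.05. Approximate reads used the shorter of the canonical and the median coding transcript length in GENCODE v44lift37, and this matched 86.3% of rows. Exact (Clopper-Pearson) 95% intervals rest on those reads. One gene in the counts is not reported here by name. The interval procedure was tested on simulated counts of known depth and length, so the transcript length assumed for each gene was not tested. Genes named with values were NDUFA4, NDUFA4L2, the core subunits, the assembly factors, those changed 2-fold, and the 3 largest rises and falls of each contrast. NDUFAF8, NDUFB4, NDUFV3 and the genes of other lists stand outside that rule. Members and lists were chosen with earlier results of these data known. Alternatives were a pseudocount of 1, no filter, a mean of at least 5, a 1.5-fold threshold, TPM and median-of-ratios scaling. The readthrough rows were left out or summed as alternatives chosen after seeing the data. Python 3.11.15, numpy 2.4.6, pandas 2.3.3, scipy 1.17.1 and matplotlib 3.10.9 were used.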

Additional observations from a re-analysis of the deposited data

Results flagged for a closer look

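NDUFA5 was lower in hypoxia in scrambled cells, at -0.16 on the log2 scale, and higher in TET1-si cells, at 0.08. The only library pair of each knockdown state thus moved in opposite directions. The counting interval in TET1-si cells ran from 0.00 to 0.15, and median-of-ratios scaling changed the sign of that value. The readthrough row of NDUFA7 (ENSG00000167774) held 0.00117, 3.58, 3.74 and 0.000761 FPKM in the order N-scr, H-scr, N-si, H-si. The change in hypoxia was 5.19 in scrambled and -5.25 in TET1-si cells, and that with knockdown was -5.19 in hypoxia and 5.25 in normoxia. It overlaps the row of NDUFA7 itself, which had values of one sign in each of these pairs. With 1 library a group, these differences between responses were not tested, and no group was large enough to be searched for a deviating sample.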

How the results depend on the processing

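The values here are over 47 rows, the readthrough rows included. At a 1.5-fold threshold the counts of changed rows were 12 and 21 for the hypoxia response in scrambled and TET1-si cells (3 and 5 at 2-fold), and 13 and 11 for TET1-si against scrambled in hypoxia and normoxia (2 and 4). TPM moved the median hypoxia response in TET1-si cells to -0.33 from -0.47, with 3 rows changed, and left 2 rows changed by TET1-si under normoxia, without NDUFA4 and NDUFA7. Median-of-ratios scaling gave 9 changed rows for hypoxia in TET1-si cells. For the TET1-si response it gave medians of -0.25 under hypoxia and -0.23 under normoxia, with 6 rows changed under hypoxia. A mean of at least 5 FPKM, or leaving out the readthrough rows, left 1 row changed by TET1-si under hypoxia.

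TPM raised the median of all genes in hypoxia from 0.05 and 0.03 to 0.16 in both knockdown states. Relative to all genes, the median hypoxia response of NDUF rows was -0.48 in scrambled and -0.50 in TET1-si cells, -0.47 and -0.50 with TPM, and -0.49 and -0.51 with median-of-ratios scaling. The rows lower in hypoxia numbered 44 and 44, 43 and 39 with TPM, and 45 and 46 with median-of-ratios scaling. Of 46 named genes, TPM changed the sign of 1 and 5 hypoxia values and of 3 and 3 TET1-si values, none above 0.12 in size. Median-of-ratios scaling changed 1 and 2, and 1 and 5, none above 0.16. Among these are the exceptions NDUFA5 and NDUFA8. The median of the NDUF rows stayed below 0 in each contrast under every setting. The 2-fold counts of the TET1-si response under normoxia did shift between directions. Of the 45 genes, TPM gave 0 lower and 1 higher, and median-of-ratios scaling gave 3 lower and 0 higher.

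Low depth limits NDUFA4L2. Leaving out a library was not possible, since each group has 1. No paired analysis was possible because each group has 1 library and no test was made.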

Other observations

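Rows whose symbols resemble those of the NDUF genes but fall outside the symbol rule, mostly pseudogenes, numbered 17. Of these, 10 were listed at 0 in all 4 libraries, and 2 reached 1 FPKM in any library. NDUFB1P1 was listed at 0 in both scrambled libraries and at 3.27 and 3.57 FPKM in the TET1-si libraries. NDUFS5P2 was at 0, 0.850, 0.427 and 4.19 FPKM. Pseudogenes can resemble their parent genes closely in sequence. That likeness was not measured here, and how the counting divided reads among them was not tested. The parents NDUFB1 and NDUFS5 were at 260 to 375 FPKM and at 284 to 587 FPKM. NDUFB2-AS1, antisense to NDUFB2, was at 0.309 to 0.510 FPKM. The readthrough gene NDUFC2-KCTD14 was highest in N-scr, at 0.648 FPKM.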
